A study of Mus musculus with 8 samples.

Results

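Cytochrome c oxidase, complex IV of the respiratory chain, passes electrons from cytochrome c to oxygen. Its catalytic core is encoded by mtDNA, and the nuclear subunits around the core stabilise it and tune its activity. Several nuclear subunits exist as paralogues: a ubiquitous (liver-type) form found in most tissues, and a heart or muscle form that mature striated muscle uses in its place. In mouse the muscle forms are Cox6a2, Cox7a1 and Cox8b, and their ubiquitous partners are Cox6a1, Cox7a2 and Cox8a.

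The genes described here are these pairs and their nearest relatives, 10 of the 14012 genes in the deposited table, taken by gene name: Cox4i1, Cox4i2, Cox6a1, Cox6a2, Cox6b1, Cox7a1, Cox7a2, Cox7a2l, Cox8a and Cox8b. All 10 were present with counts in every library. They were listed with the difference between the groups already known, so their differences are given as a description, with no p-value, and nothing is supported with them.

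RNA was sequenced from the quadriceps femoris (QF), a thigh muscle, of 4 mice labelled Grpel1 smk -/- (knockout) and 4 labelled Grpel1 flox/flox (control), 1 library per mouse. In the knockout, Cre-ERT2 under the human skeletal muscle α-actin promoter deletes floxed Grpel1 after tamoxifen, so only muscle fibres are targeted and the other cells of the muscle keep the gene. GRPEL1 is the nucleotide exchange factor of the mitochondrial HSP70 that pulls precursors into the matrix. Both groups carry the floxed allele. The study induced deletion in young mice and names untreated flox/flox littermates among its controls. Whether the 4 control mice sequenced here were such littermates or carried Cre, and their exact age at sampling, are not stated for these libraries, so an effect of tamoxifen and one of the deletion cannot be told apart.

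Libraries held 16017600 to 20361100 counts, and 3 counts, the most that a count of 0 allows, were worth 0.119 to 0.242 CPM (counts divided by the library size and scaled to a common total, with library sizes scaled by edgeR's TMM factors), for counting error only. Grpel1 itself had 64.1 to 71.2 CPM in the libraries labelled control and 59.9 to 71.9 CPM in those labelled knockout (log2 fold change -0.066, standard error 0.078, edgeR adjusted p = 0.49). The targeted gene therefore does not check the labels, and each direction below rests on them. The tissue label was checked on 6 genes of mature skeletal muscle, which were all present, with summed levels of 109629 to 136551 CPM in the controls, against 39848 to 52061 CPM in the knockouts. In whole muscle, fewer cells of a type and less RNA per cell cannot be told apart.

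The start regions of the genes are shown first, since they show a property of these genes that no count enters. RefSeq windows of 300 bases, 250 before and 50 after the annotated gene start, were at hand for 7 of the 10 genes on GRCm38.p6. They are printed for the pairs of subunits 7A and 8 and for Cox6a1, whose CpG content differs. Cox4i1, Cox4i2 and Cox6a2 are not shown. Capitals mark each CpG site, the base pair step at which DNA is methylated and which is dense in the start regions of most broadly used genes. Each sequence reads 5′ to 3′ on the strand of its gene.
Cox7a1, chr7:30183921-30184220, plus strand: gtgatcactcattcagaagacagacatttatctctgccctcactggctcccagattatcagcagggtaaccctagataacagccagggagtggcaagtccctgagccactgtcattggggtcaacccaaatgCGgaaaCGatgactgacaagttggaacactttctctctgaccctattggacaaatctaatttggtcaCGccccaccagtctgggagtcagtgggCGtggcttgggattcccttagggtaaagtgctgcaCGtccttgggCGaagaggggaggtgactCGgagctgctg
Cox8b, chr7:140900397-140900696, minus strand: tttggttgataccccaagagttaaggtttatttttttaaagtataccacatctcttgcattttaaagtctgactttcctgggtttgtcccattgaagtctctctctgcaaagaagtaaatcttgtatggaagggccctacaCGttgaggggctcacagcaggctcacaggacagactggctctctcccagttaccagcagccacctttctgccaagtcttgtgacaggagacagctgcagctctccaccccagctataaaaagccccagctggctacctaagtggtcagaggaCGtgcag
Cox7a2, chr9:79759804-79760103, minus strand: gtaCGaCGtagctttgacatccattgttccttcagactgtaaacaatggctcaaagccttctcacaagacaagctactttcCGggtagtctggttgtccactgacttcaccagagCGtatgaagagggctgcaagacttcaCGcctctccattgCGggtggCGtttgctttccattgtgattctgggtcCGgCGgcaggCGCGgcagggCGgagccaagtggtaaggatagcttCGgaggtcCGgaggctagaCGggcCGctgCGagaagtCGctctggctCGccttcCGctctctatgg
Cox8a, chr19:7217567-7217866, minus strand: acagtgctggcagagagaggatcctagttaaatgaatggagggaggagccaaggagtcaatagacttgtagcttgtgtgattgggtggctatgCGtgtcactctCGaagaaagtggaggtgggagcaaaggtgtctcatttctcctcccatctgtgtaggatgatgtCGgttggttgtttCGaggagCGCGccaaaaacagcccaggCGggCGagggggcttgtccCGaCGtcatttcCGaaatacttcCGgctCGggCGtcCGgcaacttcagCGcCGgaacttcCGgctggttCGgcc
Cox6a1, chr5:115348909-115349208, minus strand: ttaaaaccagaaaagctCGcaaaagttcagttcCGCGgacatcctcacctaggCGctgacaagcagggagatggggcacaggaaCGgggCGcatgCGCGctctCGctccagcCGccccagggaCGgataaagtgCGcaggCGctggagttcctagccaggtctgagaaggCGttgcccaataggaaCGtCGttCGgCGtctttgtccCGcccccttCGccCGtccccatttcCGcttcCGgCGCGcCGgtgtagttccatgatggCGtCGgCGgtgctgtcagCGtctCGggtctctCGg

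Cox6a1 had 32 CpG sites in its window, Cox7a2 20 and Cox8a 19, whereas the muscle gene Cox7a1 had 7 and Cox8b had 2. The median over all 32851 windows of the table was 7. Of the other ubiquitous genes, Cox6b1 had 17 and Cox7a2l 19. As a share of all windows, 91.4% had no more CpG sites than that of Cox6a1 and 23.3% no more than that of Cox8b.

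Short motifs were searched on both strands, as a description of these letters only. Cox8b was the only one of the 7 windows with the TATA motif TATAAA, which starts 4 bases downstream of the annotated start and is held by 13.6% of all windows. It also held the E-box CAGCTG, a form bound by myogenic factors, at 2 places (16.3% of all windows). That motif is among the matches of the general E-box CANNTG, which 72.3% of all windows held and which was found in 6 of the 7, all but Cox6a1. The NRF1 core GCATGCG was found in Cox6a1 alone, as 2 overlapping matches (3.58% of all windows). The GC box GGGCGG was found in Cox6a1, Cox7a2 and Cox7a2l (35.7% of all windows). The ETS motif CCGGAAG was found in Cox6a1, Cox6b1 and Cox8a (8.86% of all windows). None of the 7 windows held the ATF4 element TGATGNAA, the ERR motif AAGGTCA, the YY1 motif AAGATGG or the MEF2 motif.

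Levels of different genes were compared as CPM per kilobase of exon, with the deposited exon widths. For some genes the GENCODE M21 annotation lists more exon bases, such as 1550 against 764 for Cox4i1 and 535 against 366 for Cox7a1. For Cox8b it lists nearly the same (360 against 363). The order of the genes, the shares and the sums over isoforms depend on these widths, and other widths were not tried. Differences of a log2 ratio between the groups do not depend on them. In the controls the genes ordered as Cox4i1 (885 ± 41.1), Cox8b (772 ± 62.9), Cox6a2 (759.8 ± 125), Cox7a1 (584 ± 34.0), Cox6b1 (570.1 ± 36.2), Cox7a2 (177 ± 13.6), Cox7a2l (69.2 ± 1.77), Cox8a (56.7 ± 15.3), Cox6a1 (52.7 ± 18.6) and Cox4i2 (2.75 ± 0.967; SD, n = 4 each). Neighbours whose ranges overlapped were Cox8b with Cox6a2, Cox7a1 with Cox6b1, Cox7a2l with Cox8a and Cox8a with Cox6a1. Each of the 3 muscle forms was thus above its ubiquitous partner in every control library.

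In the libraries labelled knockout the order was Cox6a2 (1161 ± 180.5 CPM per kilobase), Cox4i1 (722 ± 71.7), Cox6b1 (488 ± 40.1), Cox8b (336 ± 44.5), Cox7a2 (191 ± 13.7), Cox8a (165 ± 36.9), Cox7a1 (137 ± 18.8), Cox6a1 (128 ± 53.3), Cox7a2l (81.3 ± 9.66) and Cox4i2 (1.82 ± 0.356; SD, n = 4 each). Ranges of neighbours overlapped from Cox7a2 down to Cox7a2l. Cox7a1 was below Cox7a2 in all 4 of these libraries, while Cox6a2 and Cox8b stayed above their partners.

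**Figure D1:**
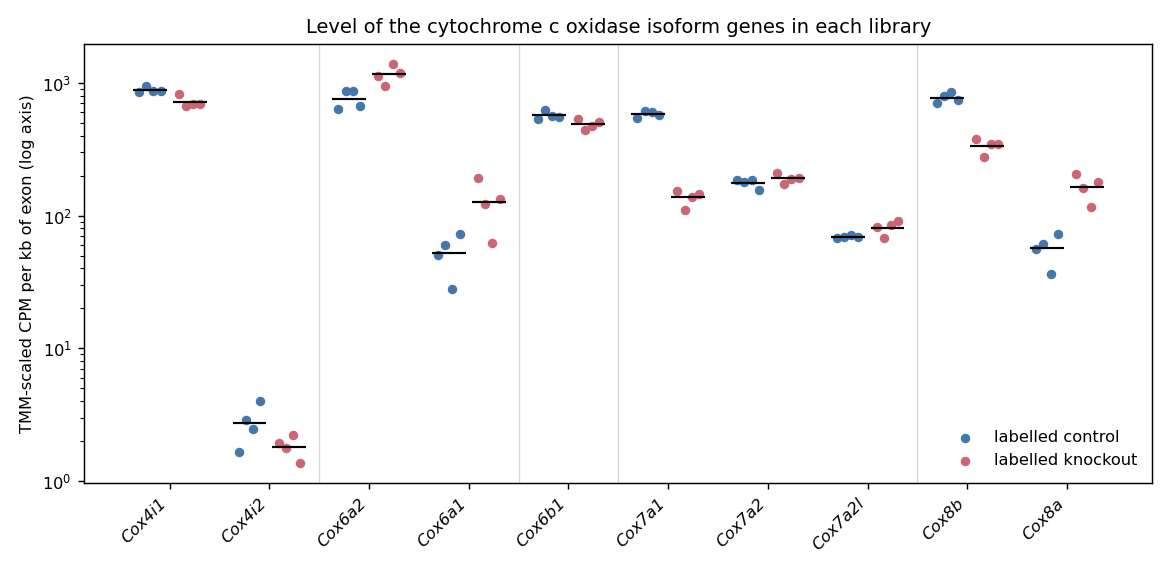
TMM-scaled CPM per kilobase of exon (log axis) of the 10 genes, grouped by subunit; points are the 4 libraries labelled control and the 4 labelled knockout, and bars are group means. Cox7a1 and Cox8b sit lower and Cox6a2 and Cox8a higher in every knockout library, while Cox6a1 overlaps between the groups and Cox4i2 lies far below the rest.

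At an edgeR adjusted p under 0.01 over all 14012 genes, 3 of the 10 genes were higher in the libraries labelled knockout (Cox6a1, Cox6a2 and Cox8a), where 23.6% of all genes were, and 2 were lower (Cox7a1 and Cox8b), where 21.1% were. The 5 called in either direction stand beside 44.7% of all genes. CPM did not overlap between the groups in 6 of the 10, beside 53.4% of all genes. The median log2 fold change of the 10 was -0.056, and that of all genes 0.065. The calls include both muscle and ubiquitous forms in the higher set, and only muscle forms in the lower.

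Subunit 7A lies where complex IV meets its partner complexes. Cox7a1 (Entrez Gene 12865, chr7:30184171-30186030 on GRCm38), the muscle form, had 198, 227, 219.7 and 211 CPM in controls 1 to 4 and 56.2, 40.4, 50.8 and 53.1 CPM in knockouts 1 to 4. The groups lay far apart, with the highest knockout library under the lowest control. Its log2 fold change was -2.09 (standard error 0.11), a level 4.26 times lower and the largest decrease of the 10 genes. Only 1.61% of all genes had a log2 fold change as low.

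Its ubiquitous partner Cox7a2 (Entrez Gene 12866, chr9:79755241-79759853) had 139, 136, 140.4 and 118 CPM in the controls, against 157, 132, 143 and 145 CPM in the knockouts. These groups overlapped, and the log2 fold change of 0.11 (standard error 0.080) was not past the threshold. Cox7a1 made up 74.6%, 77.5%, 76.3% and 78.6% of the pair, per length, in controls 1 to 4 and 42.5%, 38.8%, 42.2% and 43.0% in knockouts 1 to 4. The ranges lay far apart, and the share was 76.7% ± 1.72 against 41.6% ± 1.93 (SD, n = 4 each). On the log2 scale the ratio of Cox7a1 to Cox7a2 was 1.73 ± 0.14 in the controls, against -0.49 ± 0.12 in the knockouts, a difference of -2.21. A ratio within a library needs no scaling between libraries.

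Cox7a2l (Entrez Gene 20463, chr17:83501917-83514333) is a relative of Cox7a2 that has been linked to supercomplexes of complex IV with complex III. It had 77.4 to 82.2 CPM over the controls, whereas knockouts 1 to 4 had 93.7, 78.1, 97.6 and 104 CPM. Knockout 2 fell within the control range and the other 3 lay above it. The log2 fold change of 0.23 (standard error 0.088) was not past the threshold, but was past it without knockout replicate 2, at 0.29. Relative to Cox7a2 the log2 ratio was -1.35 ± 0.11 and -1.24 ± 0.14, with overlap. As listed in GENCODE M21, 13.4% of the windows of 75 bases in its transcript recur letter for letter in the processed pseudogene Gm6969. Reads were mapped as pairs, and whether pairs from these windows were left out as multimapping was not tested.

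Subunit 8 is the smallest subunit of the complex. Cox8b (Entrez Gene 12869, chr7:140898942-140900446), the muscle form, had 256, 289, 307 and 269 CPM in controls 1 to 4 and 138, 99.6, 125 and 126 CPM in knockouts 1 to 4. No library of one group reached the range of the other, and the log2 fold change was -1.20 (standard error 0.11), 2.29 times lower.

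Cox8a (Entrez Gene 12868, chr19:7215158-7217616), the ubiquitous form, moved the other way. It had 30.5, 33.6, 19.8 and 39.6 CPM in controls 1 to 4 and 112, 87.5, 63.7 and 96.9 CPM in knockouts 1 to 4. The lowest knockout library was above the highest control library, and the log2 fold change of 1.54 (standard error 0.22) was the highest of the 10 genes, 2.91 times higher. With the adipocyte markers described below as a covariate it was 1.25 (standard error 0.13).

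Cox8b made up 92.6%, 92.8%, 95.9% and 91.1% of the subunit 8 pair in controls 1 to 4 and 65.0%, 63.1%, 74.7% and 66.0% in knockouts 1 to 4. Replicate 3 had the highest share in both groups. The mean was 93.1% ± 2.02 against 67.2% ± 5.15 (SD, n = 4 each), and the log2 ratio of Cox8b to Cox8a differed by -2.76, from 3.81 ± 0.51 to 1.05 ± 0.35. This was the largest difference of ratio among the pairs of the complex. Exact binomial 95% intervals of the shares, for counting error only, were at most 2.88 percentage points wide for this pair and 3.62 for subunit 7A.

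**Figure D2:**
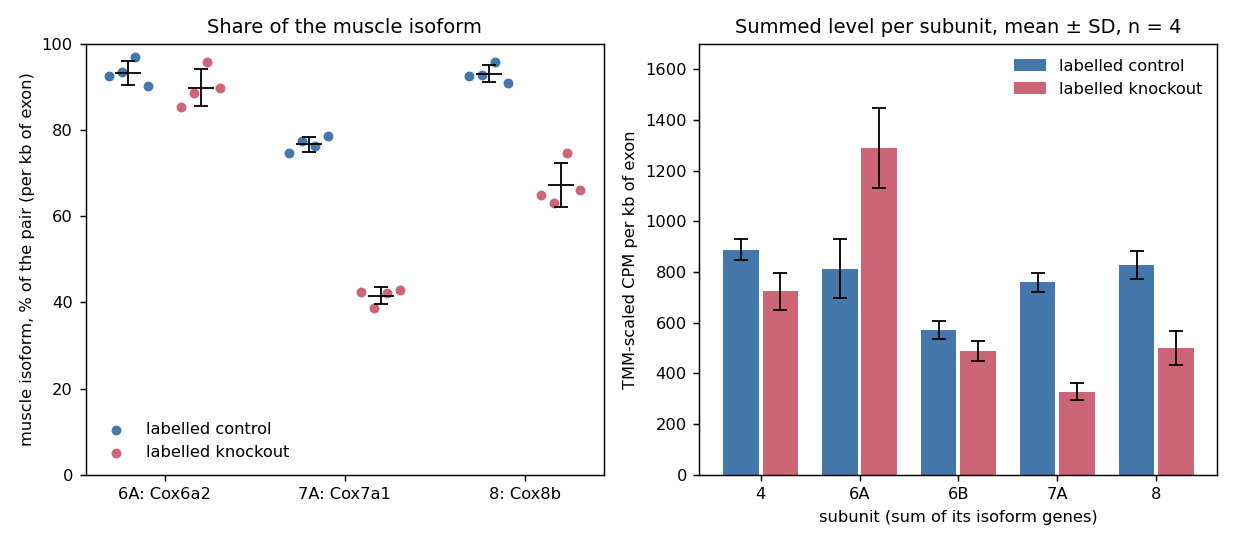
Left, the muscle isoform as a percentage of its pair per kilobase of exon in each library, with mean ± SD; right, the summed level of each subunit's genes (CPM per kilobase of exon), mean ± SD of 4 libraries per label, without Cox7a2l. The share was lower for 7A (41.6%) and 8 (67.2%) in the knockouts with no overlap, while that of 6A overlapped and its summed level was the only one that was higher.

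Subunit 6A sits at the interface of the complex IV dimer. Cox6a2 (Entrez Gene 12862, chr7:128205435-128206366), its muscle form, had 421, 569.8, 574 and 438 CPM in controls 1 to 4 and 742, 626, 915 and 777 CPM in knockouts 1 to 4. All 4 knockout libraries were above the controls, and the log2 fold change was 0.61 (standard error 0.14), 1.53 times higher. Of the 3 muscle forms, this alone was higher. Its call was lost when control 1 or 4, or knockout 1, 3 or 4, was left out (log2 fold changes down to 0.48), and the value after removal of a trend on exon length was 0.30.

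Cox6a1 (Entrez Gene 12861, chr5:115345654-115348955), the ubiquitous form, had 26.9, 32.0, 15.03 and 38.5 CPM in controls 1 to 4 and 103, 65.2, 33.2 and 71.2 CPM in knockouts 1 to 4. Knockout 3 lay below control 4, so the groups overlapped. The log2 fold change was 1.27 (standard error 0.34), 2.42 times higher, and the call was lost with 6 of the 8 libraries left out in turn (control replicates 1, 2 and 3 and knockout replicates 1, 2 and 4), with values from 0.98 to 1.46 over the 8. Its transcript shares 6.44% of its 75-base windows with the pseudogene AC148174.2.

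Cox6a2 made up 92.7%, 93.5%, 96.9% and 90.2% of the 6A pair in controls 1 to 4 and 85.4%, 88.6%, 95.7% and 89.8% in knockouts 1 to 4. The groups overlapped, at 93.3% ± 2.75 and 89.9% ± 4.30 (SD, n = 4 each). The log2 ratio of Cox6a2 to Cox6a1 differed by -0.63, less than its SD within the groups, 0.74 and 0.83. For each replicate number the knockout ratio was below the control ratio, by little for replicate 4 (3.14 against 3.20). The labels do not say that libraries of the same number belong together. Without control replicate 3 the difference was -0.29, and without knockout replicate 3 it was -1.03.

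Read as sums over the isoforms of a subunit, the levels separated the subunits as well. Subunit 6A went from 812 ± 117 to 1289 ± 158 CPM per kilobase, 1.59 times higher in the libraries labelled knockout. The sum for subunit 7A (Cox7a1 and Cox7a2) went from 761 ± 37.5 to 328 ± 32.1, and that for subunit 8 from 829 ± 54.2 to 501.4 ± 67.0 (SD, n = 4 each). Both were lower without overlap, by factors of 2.32 and 1.65. With the deposited exon widths these 3 sums lay between 761 and 829 in the controls, and in the knockouts they spread from 328 to 1289.

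Subunit 4 closes the core on the matrix side and binds ATP. Cox4i1 (Entrez Gene 12857, chr8:120668225-120674209), its form in nearly all tissues, had 652, 722, 669 and 661 CPM in controls 1 to 4 and 632, 510.2, 530.3 and 534 CPM in knockouts 1 to 4. The groups did not overlap, but knockout 1 was close to the controls. The log2 fold change of -0.29 (standard error 0.088) was not past the threshold, though it was with RLE size factors (-0.34), with DESeq2 (-0.34), after removal of the length trend (-0.59) and without knockout replicate 1 (-0.38). Its exons share 154 bases with those of Emc8 on the opposite strand in GENCODE M21, and whether the counting used strand is not stated.

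Cox4i2 (Entrez Gene 84682, chr2:152754173-152765037), the lung-type form that is raised by low oxygen, had only 15 to 46 counts in the controls, against 25 to 39 in the knockouts. That was 1.21, 2.09, 1.79 and 2.90 CPM in controls 1 to 4 and 1.42, 1.28, 1.61 and 0.994 CPM in knockouts 1 to 4. The groups overlapped, and the log2 fold change of -0.61 (standard error 0.27) was not past the threshold. Per length it made up 0.309% ± 0.110 of the subunit 4 pair in the controls, and in the knockouts it made up 0.253% ± 0.052 (SD, n = 4 each). Pericytes and smooth muscle are cells of the vessel wall. Their 8 summed markers were at 734 to 1013 CPM in the controls, against 583 to 636 CPM in the knockouts. Past the threshold 3 of the 8 were lower (Rgs5, Abcc9 and Myh11) and 0 higher. Abcc9 alone went from a mean of 305 to 163 CPM. Cspg4 (log2 fold change 0.77) and Acta2 (0.50) were above 0 without passing the threshold. Endothelial markers had summed levels of 271 to 398 CPM and 200 to 224 CPM, with 4 of 6 genes lower and 0 higher. Their part in the values of Cox4i2 was not tested. By the gene spans of the deposited table, Cox4i2 also overlaps Bcl2l1 on the opposite strand. GENCODE M21 listed no gene overlapping Cox4i2.

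Cox6b1 (Entrez Gene 110323, chr7:30616974-30626151), the form of the subunit facing the intermembrane space that most tissues use, had 272, 314, 286 and 279.8 CPM in controls 1 to 4 and 268, 222, 239 and 257 CPM in knockouts 1 to 4. The groups were next to each other without overlap. The log2 fold change of -0.22 (standard error 0.082) was not past the threshold, but with DESeq2 (-0.27) and after removal of the length trend (-0.56) it was. Its testis form Cox6b2 was not found by name among the genes of the deposited table.

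The 10 transcripts are short, with exon widths from 363 to 1149 bases (median 602, against 2930 for all genes), and the log2 fold change of all genes had a trend on exon width that stood at 0.24 to 0.36 for such widths. After it was removed, Cox8a alone was called higher, and Cox4i1, Cox6b1, Cox7a1 and Cox8b were called lower. With library totals alone, which raise the median of all genes by 0.67 on the log2 scale, Cox4i1 was at 0.37 and Cox6b1 at 0.44, while Cox7a1 (-1.43) and Cox8b (-0.53) stayed lower.

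The rest of the complex was set beside these genes from a list of 13, which was also made with results of these data known. Adjusted p-values for it are from the fit over all genes and are given as a description. Of the 10 listed genes in the table, 6 were lower by edgeR at an adjusted p under 0.01, beside 21.1% of all genes. At that threshold 0 were higher, beside 23.6% of all genes. The median log2 fold change was -0.62, and all 10 values were below 0. The mtDNA-encoded catalytic subunits fell most, COX1 from 34755 ± 863 to 10535 ± 1330 CPM (SD, n = 4 each; log2 fold change -1.72, standard error 0.14, edgeR adjusted p = 5.00e-06). COX2 and COX3, with values of -1.76 and -1.60, rested on 151 counts or fewer per library. Reads that map to several places were left out by the authors.

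Of the nuclear subunits, Cox5a (-0.62, edgeR adjusted p = 0.000176), Cox6c (-0.63, edgeR adjusted p = 0.000190) and Ndufa4 (-0.76, edgeR adjusted p = 4.26e-05), a late-joining subunit once assigned to complex I, were lower. Cox5b, the zinc-binding subunit (-0.20, edgeR adjusted p = 0.0403), Cox7b (-0.22, edgeR adjusted p = 0.039), Cox7c (-0.27, edgeR adjusted p = 0.0179) and the low-oxygen paralogue Ndufa4l2 (-0.30, edgeR adjusted p = 0.1) were not past the threshold. Cox6a1, Cox6a2, Cox7a2, Cox7a2l and Cox8a were the measured genes of the complex with a log2 fold change above 0 with TMM scaling, and Cox6a1, Cox6a2 and Cox8a of them were past the threshold. With the exon length trend removed, Cox7a2 (-0.19) and Cox7a2l (-0.012) were below 0. With library totals alone, 3 of the 10 other subunits were lower and 3 higher past the threshold. The further isoforms Cox7b2 and Cox8c were not found by name among the genes of the deposited table.

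**Figure D3:**
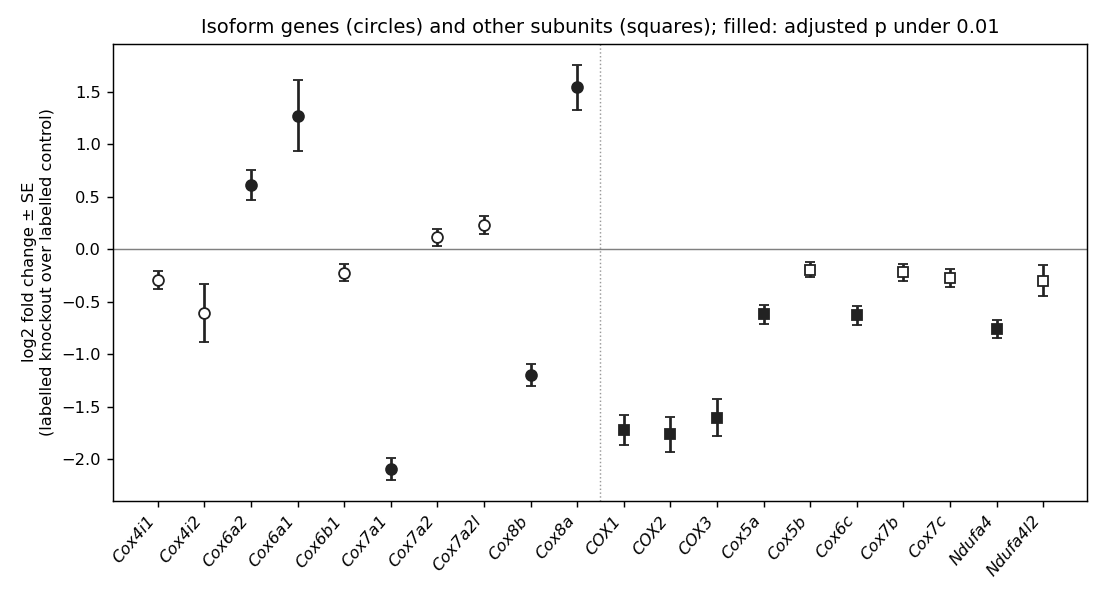
Log2 fold change of the libraries labelled knockout over those labelled control, with its standard error, for the 10 isoform genes (circles) and 10 other subunits (squares); filled symbols were past an adjusted p of 0.01. The isoform genes run from -2.09 for Cox7a1 to 1.54 for Cox8a, while all 10 other subunits are below 0.

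Muscle also uses its own paralogues outside complex IV, and 9 such pairs of muscle and ubiquitous forms were measured the same way, as the log2 ratio per library. The ratio was lower on average in the libraries labelled knockout in all 9 and without overlap in 6, with differences of -2.74 to -3.42. These pairs too were listed with results of these data known, so no p is given. These 6 were Ckm/Ckb, Eno3/Eno1, Pgam2/Pgam1, Pygm/Pygb, Slc25a4/Slc25a5 and Eef1a2/Eef1a1. Eef1a2/Eef1a1, elongation factors of translation, had the largest difference and Cpt1b/Cpt1a, gate enzymes of fatty acid entry, the smallest (-0.076, with overlap). Beside these 6 pairs, the difference of -2.76 for subunit 8 was at the small end of their range. Those of -2.21 for subunit 7A and -0.63 for subunit 6A were smaller than in any of the 6. The muscle gene had a negative log2 fold change in all 9 pairs, from -2.19 to -0.30, whereas that of Cox6a2 was 0.61.

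Genes of fast and slow fibres and of developing muscle moved with the groups as well. Of 5 fast fibre genes, 4 were lower and Myh1 was higher. Of 6 slow fibre genes, 4 were higher (summed levels of 24.8 to 103 CPM in the controls, against 160 to 1112 CPM in the knockouts). All 5 genes of developing muscle, Myh3, Myh8, Chrng, Myog and Ncam1, were higher (17.2 to 30.96 against 859 to 1741 CPM). Of 5 fibroblast genes 4 were lower, and of 6 macrophage genes 1 was higher. The part of these in the isoform shares was not tested.

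Libraries of 1 group differed among themselves in a way that split the 10 genes. Cox6a1 had the widest spread for its abundance: its SD within the groups was 0.63 on the log2 scale, larger than that of 99% of the 500 genes nearest in level, and that of Cox8a was 0.39 (95%). After the group means were taken off, Cox6a1 and Cox8a followed each other over the 8 libraries with a Pearson r of 0.98. Both ranked the libraries in one order, 4, 2, 1 and 3 from the highest in the controls, against 1, 4, 2 and 3 in the knockouts. The muscle forms Cox7a1 and Cox8b had an r of 0.95 with each other, and values of 0.13 and -0.13 with Cox6a1 and Cox8a respectively. Cox6a2 was at -0.56 with both ubiquitous genes. These libraries share their scaling factors, and no p is given.

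White and brown adipocyte markers varied widely between these libraries. The summed level of 8 adipocyte markers was 1948, 1454, 632 and 1868 CPM in controls 1 to 4 and 2867, 1669, 985 and 1707 CPM in knockouts 1 to 4. It was lowest in replicate 3 of each group, as were Cox6a1 and Cox8a, and its order in the knockouts was that of these genes. In the controls the order of the sum was not theirs, with control 1 the highest in place of control 4. As mean log2 CPM, the same markers were at 6.56, 5.92, 2.97 and 6.69 in controls 1 to 4. By that measure control 4 was the highest, as for Cox6a1 and Cox8a, but control 1 stood above control 2, unlike in these genes. None of the 8 was higher and 1, Plin4, was lower past the threshold. The 5 brown adipocyte markers were at 22.6, 40.4, 2.004 and 84.6 CPM in controls 1 to 4, the order of Cox6a1 and Cox8a there. In knockouts 1 to 4 these markers were at 114, 83.1, 6.73 and 52.5 CPM, which was not the order of those genes. With the mean log2 CPM of the 8 adipocyte markers as a covariate, the log2 fold change of Cox6a1 was 0.81 (standard error 0.24) and not past the threshold. Under this covariate Cox6a2 (0.75), Cox7a1 (-2.08), Cox8a and Cox8b (-1.15) kept their calls.

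**Figure D4:**
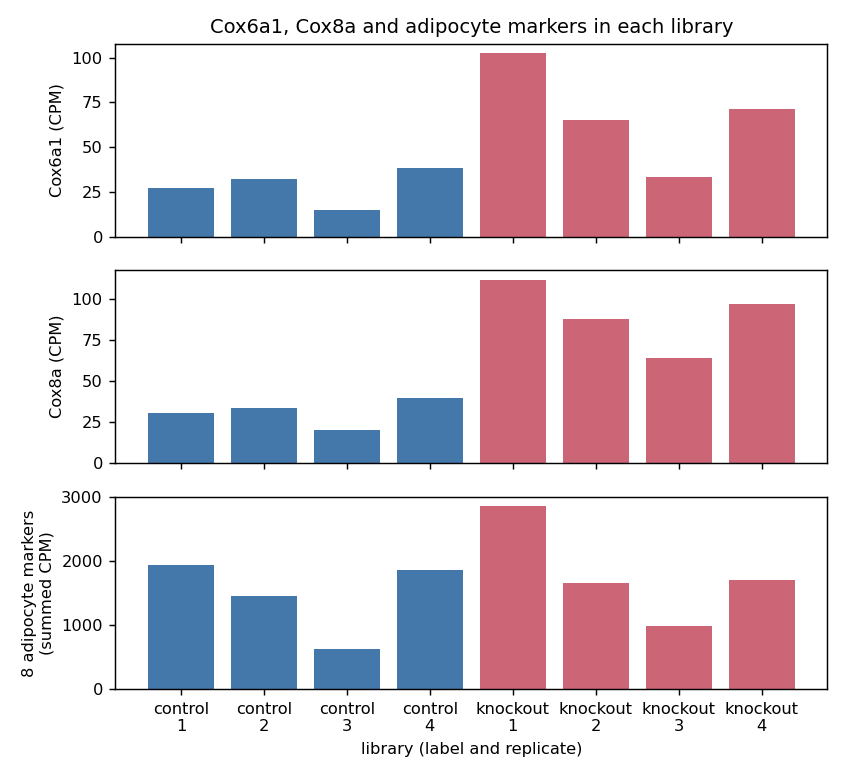
CPM of Cox6a1 and Cox8a and the summed CPM of 8 adipocyte marker genes in each library, by label and replicate. Replicate 3 is the lowest of its group in all 3 panels, at 15.03 and 33.2 CPM for Cox6a1, and knockout replicate 1 is the highest library in each.

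The genes whose pattern over the 8 libraries was most like each member, after the group means were taken off, were searched among 11047 genes with a mean count of at least 50. For Cox6a1 these were Slc25a35 and Tlcd1 (Pearson r 0.996 and 0.986), and for Cox8a Ifi27 and Pygb (0.991 and 0.988). Cox6a2 was nearest to Pick1 and Hspa13 (0.985 and 0.984), Cox7a1 to Tbc1d23 and Rbms2 (0.994 and 0.989) and Cox8b to C230091D08Rik and Fpgt (0.979 and 0.976). Cox4i1 came nearest to Trappc2l and Sdha (0.972 and 0.960), Cox4i2 to Hecw2 and Adgrf5 (0.984 and 0.982), and Cox6b1 to Coq7 and Bcat2 (0.985 and 0.978). For Cox7a2 these were Ndufa12 and Rpap2 (0.982 and 0.976), and for Cox7a2l Pdzk1 and Gtpbp2 (0.985 and 0.979). These are descriptions and carry no test.

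Reads of Cox6a2 may be shared with Itgad, an integrin gene on the opposite strand whose exons overlap 70 bases of it in GENCODE M21. Itgad had 1 to 4 counts in the controls, against 35 to 71 in the knockouts, far under the 5208 or more of Cox6a2.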

How the data were processed

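RNA from the quadriceps femoris of 4 mice labelled knockout and 4 labelled control was captured on poly(A), made into directional libraries and sequenced. The authors used bcl2fastq 2.20.0.422, cutadapt and STAR 2.5.4b on GRCm38, counted reads on exons with Rsubread, left out duplicate, chimeric and multimapping reads, and deposited the table after removing genes under 50 reads. The annotation release and the use of strand in counting are not given in the sources used here. The authors deposited raw counts, FPKM, a mean signal per gene, and their own comparison, as log2 fold changes, test scores and p-values. Those comparison columns were not used. The deposited FPKM served only as an alternative for the isoform ratios.

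Counts were fitted in edgeR 4.0.16 (R 4.3.3) by the quasi-likelihood test with TMM factors over all 14012 genes, with Benjamini-Hochberg adjustment and a threshold of 0.01, without further filter. SDs are over the 4 mice of a label. CPM was divided by the deposited exon width where genes were compared, and an isoform ratio was the log2 of 2 such levels in a library. Ratios of the 9 other pairs are given as a description. An exact permutation test planned for them is not reported, since the pairs were listed with results known. Levels and fits were made from counts, and log2 CPM used a prior count of 2. Promoter windows came from RefSeq on GRCm38.p6, and overlaps from GENCODE M21 and from the deposited gene spans. The fit was tested on simulated data with 200 of 13990 genes changed, equally up and down. It recovered 74% of changes of 1 and 84% of changes of 2 on the log2 scale, and called 4 unchanged genes. In the real data 44.7% of genes were called, so the simulation does not cover scaling under so many changes. Alternatives were RLE factors, upper-quartile factors, filterByExpr, library totals alone, removal of a loess trend on exon width, the mean log2 CPM of 8 adipocyte markers as a covariate, DESeq2 1.42.0, a threshold of 0.05, a replicate block, and each library left out.

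The members and all lists were chosen with earlier results of these data known. The named genes were the 10 members, the other subunits listed, the largest and smallest change among the other pairs, the 2 genes most alike to each member, overlapping genes and Grpel1.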

Additional observations from a re-analysis of the deposited data

How the results depend on the processing

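The differences of the log2 isoform ratios kept their direction with each library left out. The deposited FPKM and the replicate block return the same differences by construction, so these settings could not test them. Adding a prior count to the counts changed them little. Scaling between libraries cancels in such a ratio. DESeq2, the adipocyte covariate and removal of the length trend were not run on the ratios. The results on single genes moved with the scaling. With library totals alone 8498 genes were higher and 873 lower (90.7% of calls higher, against 52.7% with TMM), 7 of the 10 members were higher, 3 other subunits were lower and 3 higher, and the log2 fold changes of Cox4i1 (0.37), Cox6b1 (0.44), Cox5a (0.045), Cox5b (0.47), Cox6c (0.036), Cox7b (0.44) and Cox7c (0.40) turned positive. So did those of Cox4i2 (0.043) and Ndufa4l2 (0.36), not past the threshold in either fit. With the exon length trend removed, 42.1% of calls were higher, 1 member was higher and 4 were lower, 10 other subunits were lower, and Cox7a2 (-0.19) and Cox7a2l (-0.012) turned negative. DESeq2 called 4 members lower, as did a threshold of 0.05. With each library left out in turn, 1 to 3 members were higher. The causes were not tested. COX2, COX3 and Cox4i2 are limited by low counts.

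With the replicate number as a block, 3215 genes were higher and 2908 lower, and the same 5 members were past the threshold. Libraries with the same number had residual correlations of 0.213, 0.035, 0.512 and 0.163. Of the 8 libraries, 5 correlated best with their own number, and control 4 and both libraries of replicate 2 did not. The labels state no pairing and none was assumed, so the main fit does not use what libraries of the same number may share.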
